A study of Arabidopsis thaliana with 12 samples.

Results

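The tau and phi glutathione S-transferases (GSTs) of Arabidopsis were described in leaf RNA-seq libraries of drought-treated and watered plants. The gene IDs of GSTU1 to GSTU28 and of GSTF2 to GSTF14 were looked up in the count table, which gave 41 members of 36061 named genes, 28 of the tau class and 13 of the phi class. GSTs join glutathione to reactive or foreign compounds, and some also reduce peroxides or carry small molecules without changing them. The conjugates are moved into the vacuole by ABCC transporters. The tau and phi classes are the large GST classes of plants, and many of their genes are induced by herbicide safeners, pathogens, oxidants and dehydration. Several were first cloned as early responsive to dehydration genes, among them GSTF6 (ERD11), GSTF10 (ERD13) and GSTU17 (ERD9).

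The 12 libraries formed 4 groups of 3 biological replicates. PHD6-drought and WT-drought plants had water withheld, and PHD6-control and WT-control plants were watered. PHD6 plants were Columbia-0 Arabidopsis carrying the coding sequence of MtPHD6, a PHD finger gene of Medicago truncatula, on a pCAMBIA1301S vector and taken as homozygous T3 lines, and WT plants were Columbia-0 without it. A library held rosette leaves of several pooled plants, the line behind each PHD6 library is not given, and the promoter driving the transgene is not named. The labels give 10 days of treatment for all 12 samples, watered ones included, while the study's methods give a shorter time. The transgene itself was not analysed here, so it did not check the labels.

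Library totals ran from 17839925 to 24717357 counts over named genes, and the 41 GSTs took 0.239 to 0.397% of them. All 5 mesophyll markers were present at a summed 29869.6 to 51750.1 CPM (counts scaled to the library total after TMM scaling), and the 3 seed markers together stayed at or under 0.383 CPM. The 5 root markers, of which 1 was abundant enough to be tested, summed to 40.3 to 138 CPM. The 3 guard cell markers summed to 30.7 to 50.1 CPM. Neither list had a called member. The guard cell values were all negative with drought in WT plants, and in MtPHD6 plants 1 was positive and 2 negative. With drought 2 mesophyll markers were called lower in MtPHD6 plants and 1 in WT plants. In PHD6-drought vs. WT-drought 1 was called lower and all 5 had negative values (median log2 fold change -0.15). The 4 flower markers, none of them called, had a median of -1.15 with drought in WT plants, all negative, and of 1.15 in PHD6-drought vs. WT-drought, all positive, at a summed 4.71 to 11.5 CPM in PHD6-drought and 2.49 to 5.90 CPM in WT-drought. The part of these markers in the results was not tested. Over 19681 genes PHD6-control replicate 3 correlated with its own group at r = 0.982 and 0.981 and with WT-drought replicate 1 at r = 0.987, and 2 WT-control libraries correlated with each other at only r = 0.975. The summed level of 3 senescing leaf markers (SAG13 and SEN1, with SAG12 at or near 0 in every library) was 40.2, 39.4 and 70.3 CPM in PHD6-drought, against 17.4, 16.5 and 65.3 CPM in PHD6-control, and 74.0, 50.0 and 50.4 CPM in WT-drought, against 168, 44.7 and 8.60 CPM in WT-control (replicates 1 to 3 in order). Results are therefore given with and without PHD6-control replicate 3 and WT-control replicate 1 where the call depends on them. The sum joins 2 tested markers that did not always move together. With drought in WT plants 1 was at -1.04 and 1 at 1.44 (log2 fold change), the latter called higher. In PHD6-control vs. WT-control they were at -2.11 and 0.90, neither called. Both were positive with drought in MtPHD6 plants (0.13 and 0.99) and negative in PHD6-drought vs. WT-drought (-0.39 and -0.08), without a call. In leaf samples fewer cells of a type and less RNA per cell cannot be told apart.

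Of the 41 genes, 29 lie in 9 tandem clusters and 12 stand alone. The largest cluster holds GSTU1 to GSTU7 on chr2:12617936-12632538 (TAIR10.1, minus strand), and the phi cluster GSTF4 to GSTF7 lies on chr1:658578-666471. Such copies can share reads. The coding sequences of GSTF6 and GSTF7 are 94.3% identical, those of GSTF2 and GSTF3 94.5% and those of GSTU1 and GSTU2 85.6% (RefSeq, TAIR10.1). To show how close the phi pairs are, the first 60 coding bases are given 5′ to 3′, with capitals marking bases that differ within a pair. GSTF6 and GSTF7 do not differ there and GSTF2 and GSTF3 differ at 2 bases.
GSTF6 and GSTF7: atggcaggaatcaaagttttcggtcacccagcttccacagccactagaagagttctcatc
GSTF2: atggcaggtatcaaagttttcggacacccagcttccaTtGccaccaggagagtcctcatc
GSTF3: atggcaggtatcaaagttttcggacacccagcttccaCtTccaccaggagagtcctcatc

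No exonic stretch as long as the shorter of the study's read lengths was shared between any 2 members on the same strand, but 9.41% of the 50-base windows of GSTF6 also occurred in GSTF7. Values of these 2 genes are therefore less certain singly than as a pair. In GSTF2, 890 of 1471 exonic bases overlap AT4G02510 on the opposite strand, GSTF8 shares 219 bases with AT2G47720 on its own strand, and GSTU17 and GSTU18 share 71 bases. Without stranded counting such reads cannot be told apart, and whether strand was used is not stated.

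GSTU1, the member that the study also assayed by qRT-PCR, is printed here through its primers, which show how the head of the tau cluster differs from its neighbours. The forward primer matched GSTU1 at chr2:12632115-12632137 and the reverse primer at chr2:12631907-12631927, both without a mismatch. The closest sites in GSTU2 to GSTU7 had 3 to 7 mismatches to the forward and 3 to 10 to the reverse primer. Capitals mark mismatches in the closest site of each.
GSTU1 forward: aatacatcgatcagacgtggaag
GSTU6 site: aatacatcgatGagacTtggaaA
GSTU1 reverse: tctctgcttttacaagggacc
GSTU2 site: tctctgcttttacTagggGcA

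Of the 41 members, 32 passed the filter on low counts and were tested, 23 tau and 9 phi. The other 9 (GSTU2, GSTU14, GSTU15, GSTU21, GSTU22, GSTF5, GSTF11, GSTF13 and GSTF14) reached at most 18 counts in any library. GSTF11 had 0 counts in all 12 libraries, which allows up to 0.0119 CPM over their 252883751 counts, but all 934 of its exonic bases overlap AT3G03200 on the opposite strand. Levels differed widely among the rest. Per kilobase of exon, GSTF9, a phi enzyme with peroxidase activity, held 34.5% of the summed GST level over all libraries. GSTF10 held 14.9%, GSTU19 11.5%, GSTU20 10.8% and GSTF6 5.16%. The order below GSTF9 differed between groups. In WT-control GSTU19 and GSTU20, at 332 and 278 CPM per kilobase, stood above GSTF10 at 276. GSTF6 was at 235 CPM per kilobase in PHD6-drought and at 42.1 in WT-control, where it lay below GSTU5 at 127, GSTF8, GSTU13 and GSTU18. GSTU19 is known for its induction by herbicide safeners, and GSTU20 (FIP1) takes part in jasmonate and far-red light signalling. In the order over all libraries GSTF9 lay above GSTF10 in every library, while each later gene overlapped the one before it across the 12 libraries, as GSTF8, the chloroplast GST, did with GSTF6. The remaining 26 tested members ranged down to GSTU12, which was at 0 in 4 libraries and reached 1.24 CPM at most.

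**Figure D1:**
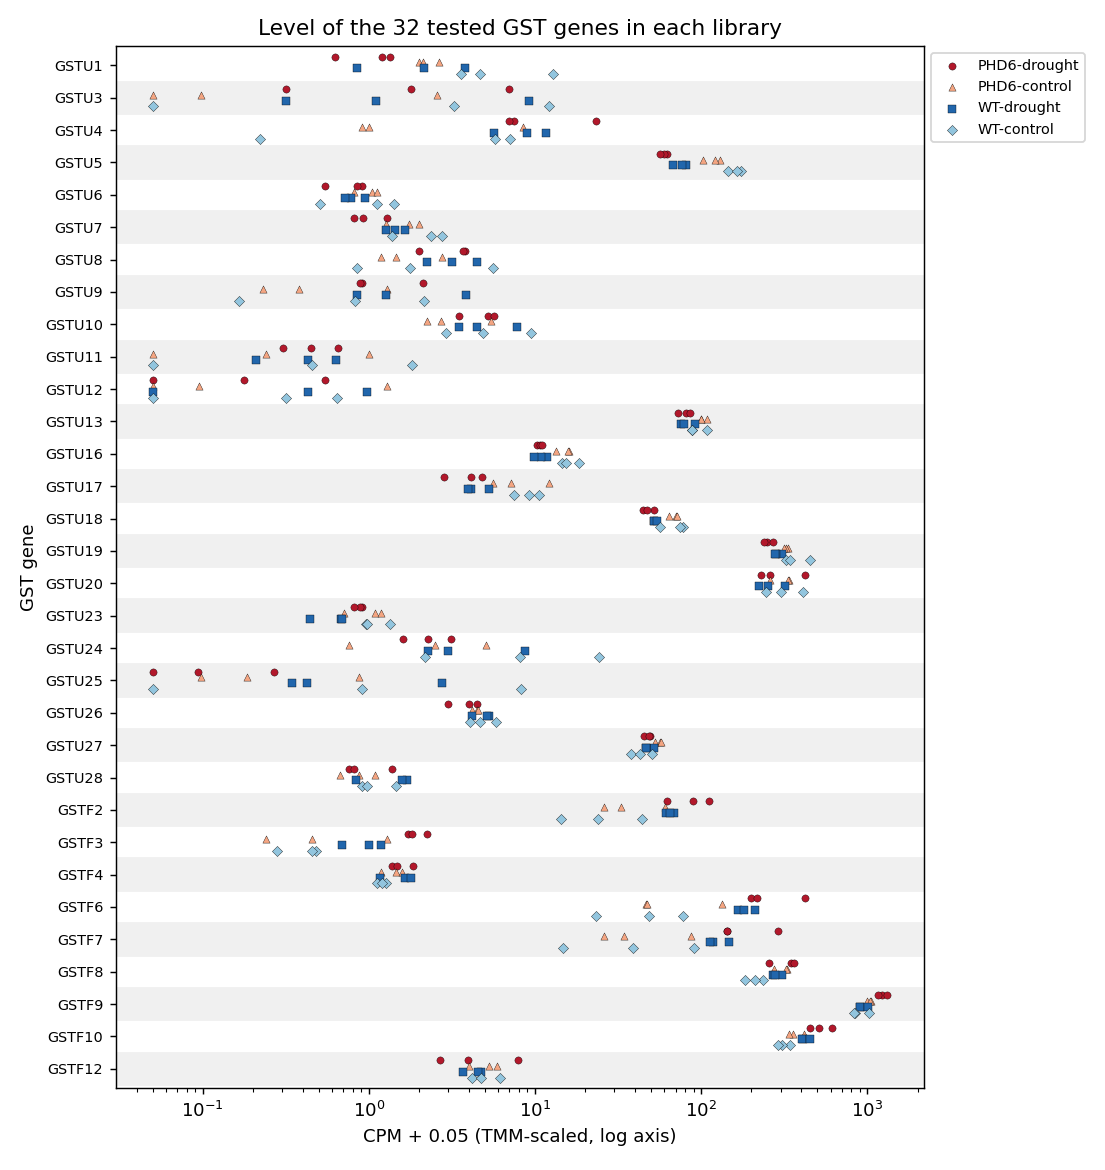
Level of each of the 32 tested GST genes in all 12 libraries, in TMM-scaled CPM with 0.05 added, on a log axis. Each row is a gene (tau above, phi below) and each point a library, coloured by group. GSTF9, at 829 to 1319 CPM, is the highest gene, and weakly expressed tau genes such as GSTU3, GSTU24 and GSTU25 spread widely among replicates of 1 group.

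With drought the members called higher were all phi and those called lower all tau, in both genotypes, but in MtPHD6 plants this split was lost without PHD6-control replicate 3, when 5 tau genes were also called higher, and with the replicate block, when 2 were. In MtPHD6 plants (PHD6-drought vs. PHD6-control) 5 of 9 tested phi genes rose (GSTF2, GSTF6, GSTF7, GSTF9 and GSTF10) and 7 of 23 tau genes fell (GSTU1, GSTU5, GSTU13, GSTU16, GSTU17, GSTU18 and GSTU19). In WT plants (WT-drought vs. WT-control) 4 phi genes rose (GSTF2, GSTF6, GSTF8 and GSTF10) and 4 tau genes fell (GSTU5, GSTU16, GSTU17 and GSTU18). The 2 comparisons share no library. Both called GSTF2, GSTF6 and GSTF10 higher, which is 3 of 5 and 3 of 4 rises, and GSTU5, GSTU16, GSTU17 and GSTU18 lower, which is 4 of 7 and 4 of 4 falls. The share of all genes called alike in both comparisons is not given here, so nothing particular to GSTs is read from this overlap. The direction of these members was counted after the calls were known.

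Calls are adjusted p-values under 0.05 from edgeR's quasi-likelihood test over 19681 genes. Among all genes, 9.49% were called higher and 12.7% lower with drought in MtPHD6 plants, against 15.6 and 21.9% of the 32 tested GSTs. In WT plants 12.2% of all genes were called higher and 7.18% lower, against 12.5% of the tested GSTs each way. In either direction 22.2% of all genes were called in MtPHD6 and 19.4% in WT plants. The shares of GSTs lay at or above these and were not tested against them. The split by class was read as a description. The median log2 fold change of tested phi genes was 0.52 in MtPHD6 and 0.45 in WT plants, that of tau genes -0.29 and -0.36, and that of all genes 0.02 and -0.01. Without WT-control replicate 1 the tau median in WT plants was -0.10, with 13 of 23 values negative. With all libraries, of the 9 phi genes 8 had a positive value in each genotype, and of the 23 tau genes 16 had a negative one. GSTF12 (TT19), which is needed for anthocyanin storage in the vacuole, was the phi gene with a negative value in both.

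**Figure D2:**
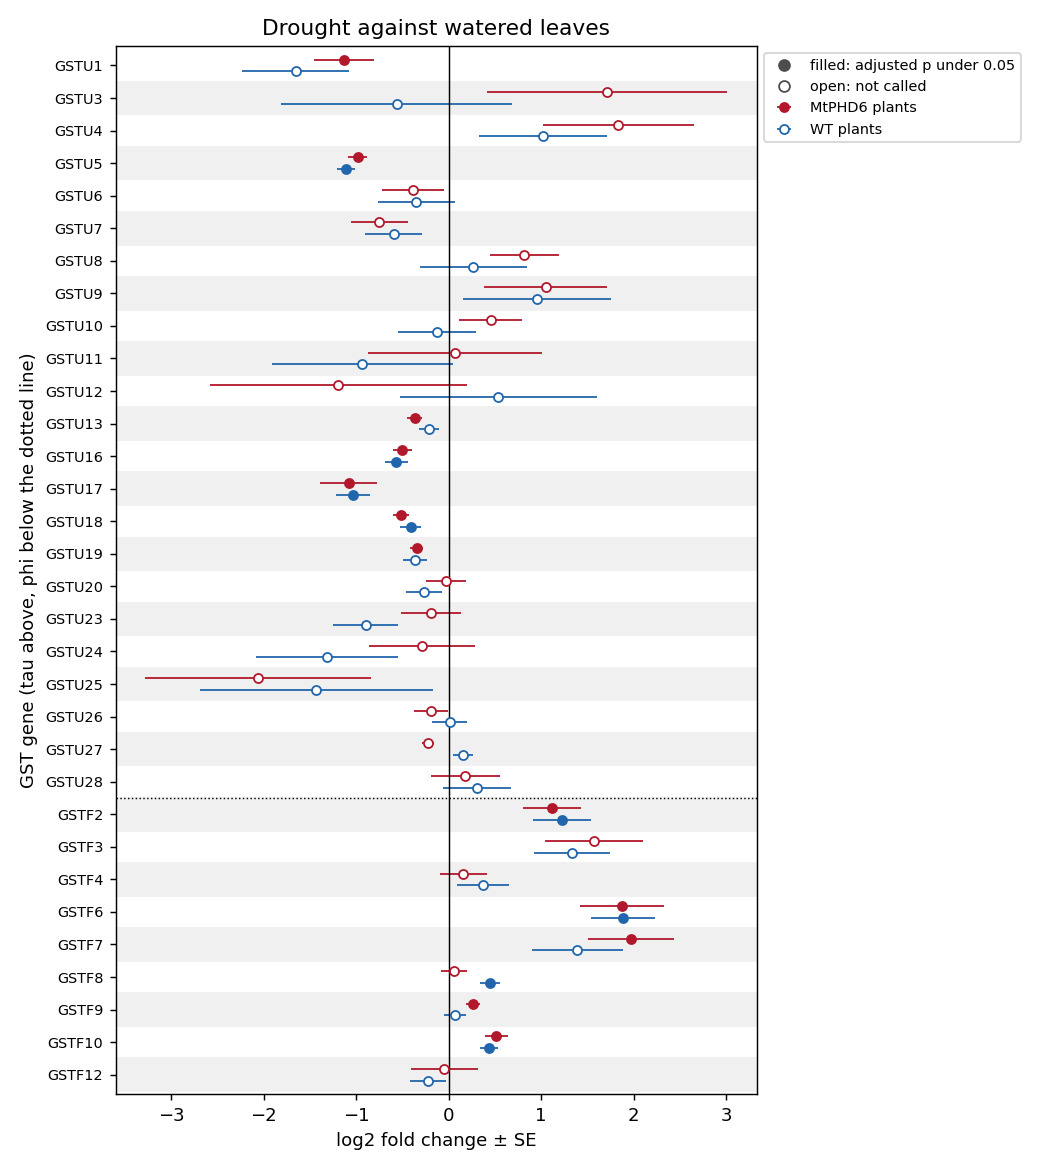
log2 fold change ± SE with drought of the 32 tested GST genes, in MtPHD6 plants (red) and WT plants (blue), from edgeR's fit on 6 libraries each. Filled points are called at an adjusted p under 0.05. All filled points of the tau class lie left of 0 and all filled points of the phi class right of it, with GSTU5 at -0.98 and -1.11 and GSTF6 at 1.87 and 1.89.

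GSTF6 (AT1G02930, chr1:661088-662475), which acts in camalexin synthesis by joining glutathione to an indole intermediate, made the largest rise called in WT plants. It stood at 198, 216 and 421 CPM in PHD6-drought, against 46.3, 47.2 and 134 CPM in PHD6-control libraries 1 to 3 (1.87 ± 0.45, adjusted p = 0.0209, log2 scale). In WT-drought it stood at 166, 210.2 and 179.5 CPM, against 77.9, 48.6 and 23.3 CPM in WT-control (1.89 ± 0.34, adjusted p = 0.00571). Drought and watered libraries did not overlap in either genotype, as was the case for 41.2% of all genes in MtPHD6 and 37.6% in WT plants, with PHD6-control replicate 3 the highest of the watered ones. GSTF7 (AT1G02920, chr1:658578-659980), its neighbour and a marker of pathogen response, had 144, 143 and 291 CPM in PHD6-drought, against 34.0, 25.9 and 86.8 CPM in PHD6-control (1.97 ± 0.46, adjusted p = 0.0186). In WT-drought GSTF7 had 117, 147 and 114 CPM, against 90.2, 38.8 and 14.7 CPM in WT-control, and this did not pass the test (1.39 ± 0.49, adjusted p = 0.0844), though the groups did not overlap. Because the pair shares sequence, the sum over the cluster is also given. The cluster GSTF4 to GSTF7 summed to 344, 359.6 and 714 CPM in PHD6-drought, against 81.4, 74.6 and 222 CPM in PHD6-control, and to 284, 359 and 295 CPM in WT-drought, against 169, 88.9 and 39.3 CPM in WT-control. The means differed 3.75-fold and 3.15-fold.

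GSTF2 (AT4G02520, chr4:1110343-1112033), a plasma membrane associated GST that binds indoles and flavonols, also rose in both genotypes. It had 61.8, 88.6 and 111 CPM in PHD6-drought, against 33.0, 26.0 and 60.8 CPM in PHD6-control (1.12 ± 0.31, adjusted p = 0.0355). In WT-drought it had 68.1, 61.0 and 64.7 CPM, against 24.0, 44.0 and 14.3 CPM in WT-control (1.22 ± 0.31, adjusted p = 0.0261). The lowest PHD6-drought library lay just above PHD6-control replicate 3, and WT-control replicate 2 was the highest watered WT library. Its close copy GSTF3 was far less abundant, with 1.67, 1.77 and 2.19 CPM in PHD6-drought, against 0.190, 0.406 and 1.24 CPM in PHD6-control (1.57 ± 0.53, adjusted p = 0.0679), so that it was not called despite groups that did not overlap.

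The abundant phi genes moved less. GSTF10 (AT2G30870, chr2:13141290-13142676) had 454, 511 and 612 CPM in PHD6-drought, against 355, 335 and 412 CPM in PHD6-control (0.52 ± 0.12, adjusted p = 0.0209), and 409.5, 404 and 452 CPM in WT-drought, against 343, 304 and 289 CPM in WT-control (0.43 ± 0.10, adjusted p = 0.0156). Groups did not overlap in either genotype, and the fold changes were 1.43 and 1.35. Its tandem neighbour GSTF9 (AT2G30860, chr2:13138882-13140392) had 1223, 1153 and 1319 CPM in PHD6-drought, against 1046, 999 and 1031 CPM in PHD6-control (0.27 ± 0.08, adjusted p = 0.0449). The GSTF9 call was lost in 5 of 6 fits that left out 1 library and with no filter on low counts, the joint fit or the replicate block (adjusted p up to 0.155). In WT plants GSTF9 did not pass the test, with 905, 904 and 1012 CPM in WT-drought, against 847, 1021 and 829 CPM in WT-control (0.07 ± 0.12, adjusted p = 0.762). GSTF8 (AT2G47730, chr2:19556326-19559485), the chloroplast member, was called in WT plants only, with 307, 271 and 278 CPM in WT-drought, against 234, 184 and 209 CPM in WT-control (0.45 ± 0.11, adjusted p = 0.0188). In MtPHD6 plants GSTF8 had 254, 346 and 361 CPM in PHD6-drought, against 326, 274 and 323 CPM in PHD6-control (0.06 ± 0.14, adjusted p = 0.795). The test of that difference between genotypes was not passed for GSTF8 or GSTF9 (interaction -0.39 ± 0.19, adjusted p = 0.309 and 0.20 ± 0.14, adjusted p = 0.522).

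Among the tau genes GSTU5 (AT2G29450, chr2:12624403-12625790), an auxin-inducible member of the GSTU1 to GSTU7 cluster, had the smallest adjusted p of any GST. It had 62.3, 59.3 and 56.7 CPM in PHD6-drought, against 130.2, 121 and 102 CPM in PHD6-control (-0.98 ± 0.10, adjusted p = 0.000704). In WT-drought it had 80.4, 76.4 and 67.5 CPM, against 174, 145 and 165 CPM in WT-control (-1.11 ± 0.10, adjusted p = 0.000174). Its 6 drought libraries all lay below its 6 watered ones. GSTU5 was called in every fit that left out 1 library, in both genotypes, and so were GSTU17 and GSTF6 in WT plants and GSTU18 in MtPHD6 plants. The whole cluster summed to 77.6 ± 10.6 CPM in PHD6-drought and 127 ± 9.31 CPM in PHD6-control, and to 91.4 ± 13.9 CPM in WT-drought and 181 ± 25.5 CPM in WT-control (SD, n = 3 each), most of it from GSTU5.

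GSTU17 (AT1G10370, chr1:3396883-3398358), which is known to act in abscisic acid and light responses and whose loss makes Arabidopsis more drought tolerant, fell in both genotypes. It had 4.06, 4.73 and 2.79 CPM in PHD6-drought, against 12.1, 7.13 and 5.54 CPM in PHD6-control (-1.08 ± 0.31, adjusted p = 0.0372), and 5.23, 4.07 and 3.88 CPM in WT-drought, against 10.5, 7.43 and 9.12 CPM in WT-control (-1.03 ± 0.18, adjusted p = 0.00476). No drought library reached a watered one of its genotype. GSTU18 (AT1G10360), its tandem copy, had 44.3, 52.2 and 47.2 CPM in PHD6-drought, against 70.0, 71.9 and 63.7 CPM in PHD6-control (-0.52 ± 0.08, adjusted p = 0.00517). In WT plants GSTU18 had 51.9, 51.9 and 53.8 CPM in WT-drought, against 77.8, 56.8 and 74.4 CPM in WT-control (-0.41 ± 0.11, adjusted p = 0.037). Both copies thus moved the same way, GSTU17 by the larger factor.

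GSTU16 (AT1G59700) had 10.3, 10.7 and 11.0 CPM in PHD6-drought, against 16.1, 15.7 and 13.4 CPM in PHD6-control (-0.50 ± 0.10, adjusted p = 0.0123), and 11.8, 10.8 and 9.83 CPM in WT-drought, against 18.5, 14.5 and 15.2 CPM in WT-control (-0.57 ± 0.12, adjusted p = 0.013). Its cluster partner GSTU15 had at most 1 count in any library. GSTU19 (AT1G78380, chr1:29486387-29488007) fell in MtPHD6 plants, with 250.2, 240.0 and 272 CPM in PHD6-drought, against 331, 323 and 315 CPM in PHD6-control (-0.35 ± 0.07, adjusted p = 0.0133). A change of about the same size did not pass in WT plants, with 306, 283 and 278 CPM in WT-drought, against 450.3, 322 and 342 CPM in WT-control (-0.36 ± 0.13, adjusted p = 0.0902). GSTU13 (AT1G27130), which takes part in indole glucosinolate metabolism after pathogen attack, had 72.0, 80.6 and 85.7 CPM in PHD6-drought, against 108, 99.0 and 100.0 CPM in PHD6-control (-0.36 ± 0.08, adjusted p = 0.0165). In WT-drought GSTU13 had 91.6, 75.5 and 78.7 CPM, against 109, 87.4 and 88.3 CPM in WT-control (-0.21 ± 0.11, adjusted p = 0.234). GSTU20 was not called, with -0.03 ± 0.22, adjusted p = 0.936 in MtPHD6 plants and -0.27 ± 0.19, adjusted p = 0.393 in WT plants, and PHD6-drought replicate 1 and WT-control replicate 2 stood out at 419.8 and 409 CPM.

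GSTU1 (AT2G29490, chr2:12631341-12632538), a xenobiotic-inducible tau gene, had 1.28, 0.575 and 1.15 CPM in PHD6-drought, against 2.61, 1.94 and 2.07 CPM in PHD6-control (-1.14 ± 0.32, adjusted p = 0.0381). This call was lost in 5 of 6 fits that left out 1 library, among them that without PHD6-control replicate 3 (-1.17, adjusted p = 0.0596, edgeR), and in the joint fit of all 12 libraries (adjusted p = 0.174). In WT-drought it had 3.71, 2.10 and 0.797 CPM, against 12.8, 4.62 and 3.56 CPM in WT-control, which did not pass (-1.65 ± 0.58, adjusted p = 0.0825), and WT-drought replicate 1 overlapped the watered libraries. With the replicate number as a block in WT plants, where libraries of the same number deviated together, 7 GSTs fell in place of 4 (GSTU1, GSTU19 and GSTU24 in addition) and 5 rose in place of 4 (GSTF7 in addition). Calls over all genes rose too, to 13.1% higher and 8.31% lower, against 12.2 and 7.18% without the block. The adjusted p of GSTU1 was then 0.000574 in edgeR's test. The block was chosen from the deviations of these same libraries and no source pairs them, so this p decides nothing about GSTU1. Without the block GSTU1 was called by the joint fit of all 12 libraries. It was called in 0 of 6 fits that left out 1 library of the WT comparison (adjusted p 0.055 to 0.243, edgeR).

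**Figure D3:**
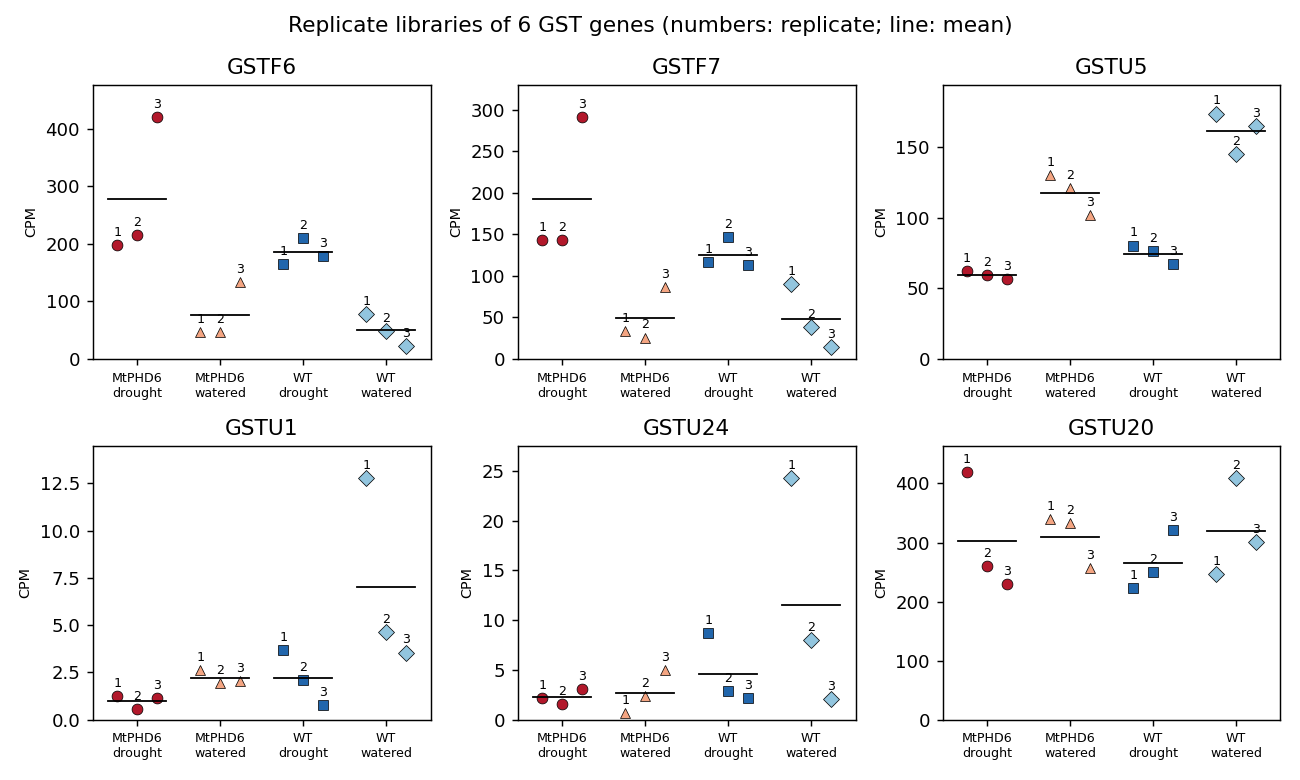
CPM of 6 GST genes in every library, with the replicate number above each point and the group mean as a line. GSTF6, GSTF7 and GSTU5 separate drought from watered libraries in both genotypes, while GSTU1 and GSTU24 are set apart by WT-control replicate 1, at 12.8 and 24.3 CPM.

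Many calls did not hold when a single library was left out. Without PHD6-control replicate 3, 10 GSTs rose with drought, and 5 of them were tau genes (GSTU3, GSTU4, GSTU8, GSTU9 and GSTU10), so that the split of phi higher and tau lower did not hold without that library. The others were GSTF2, GSTF3, GSTF6, GSTF7 and GSTF10, and 6 tau genes still fell. GSTF6 was then at 2.57, adjusted p = 0.00154 and GSTF7 at 2.69, adjusted p = 0.00159 (log2 fold change, edgeR). No GST rose without PHD6-control replicate 1, PHD6-control replicate 2 or PHD6-drought replicate 3, and 2 did without PHD6-drought replicate 2, while 2 to 5 tau genes fell. Calls over all genes dropped in these fits too. In the same order 3.82, 3.60, 4.57 and 4.81% of genes were called higher, against 9.49% with all libraries. Called lower were 6.44, 6.64, 7.98 and 8.60%, against 12.7%. Without PHD6-control replicate 3, 10.8% of all genes were called higher and 12.6% lower. In MtPHD6 plants GSTU1, GSTU17 and GSTF9 kept their call in 1 of 6 such fits, GSTF2 and GSTF10 in 2, GSTU19, GSTF6 and GSTF7 in 3, and GSTU13 and GSTU16 in 4. In WT plants GSTU18 kept its call in 1 of 6 fits, GSTF2 and GSTF8 in 2, GSTF10 in 3 and GSTU16 in 4. Only GSTF6 rose there without WT-drought replicate 1 or WT-drought replicate 3, GSTF6 and GSTF10 without WT-drought replicate 2, and GSTF2 and GSTF6 without WT-control replicate 3. In these fits 8.10 to 8.85% of all genes were called higher, against 12.2% with all libraries. Without WT-control replicate 1, GSTF6, GSTF7, GSTF8 and GSTF10 rose and GSTU5, GSTU16 and GSTU17 fell, while 12.6% of all genes were called higher and 6.15% lower. In the 15 fits of the WT comparison no tau gene was called higher and no phi gene lower.

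Summed over each class, the libraries showed the same contrast. The 13 phi genes summed to 2347, 2464 and 3123 CPM in PHD6-drought, against 1848, 1714 and 2054 CPM in PHD6-control, and to 1979.5, 2005 and 2107 CPM in WT-drought, against 1622, 1649 and 1386 CPM in WT-control. The 28 tau genes summed to 939, 781 and 806 CPM in PHD6-drought, against 1079.9, 1042 and 953 CPM in PHD6-control, and to 882, 836 and 884 CPM in WT-drought, against 1231, 1121 and 1057 CPM in WT-control. Drought and watered libraries overlapped in neither class and neither genotype. The mean of the phi class with drought was 1.41 times that without in MtPHD6 plants and 1.31 times in WT plants, and that of the tau class 0.821 and 0.763 times. GSTF9 and GSTF10 made up most of the phi sum and GSTU19 and GSTU20 most of the tau sum, and no p is given for sums over chosen members. The sums contain the called members and so partly restate their calls. With drought the mean of GSTF4 to GSTF7 went from 126 to 473 CPM in MtPHD6 plants and from 99.2 to 312 CPM in WT plants. That of GSTF9 went from 1025 to 1232 CPM and from 899 to 940 CPM.

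**Figure D4:**
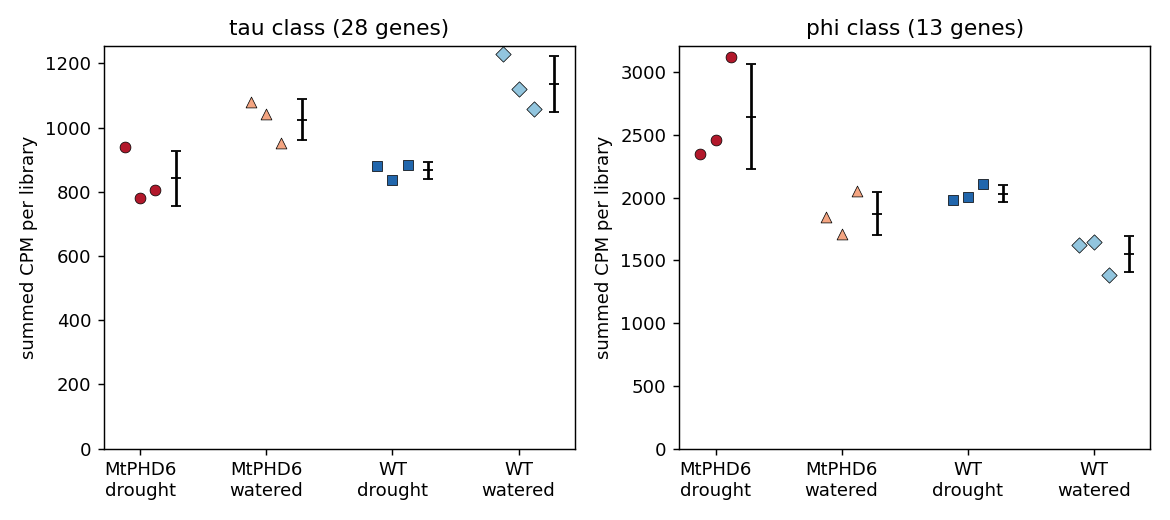
Summed CPM of the 28 tau genes (left) and 13 phi genes (right) in each library by group, with mean ± SD (n = 3) beside the points. Phi sums are 2347 to 3123 CPM in PHD6-drought, above all other groups, and tau sums are lower with drought than without in both genotypes.

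Few members passed the test between MtPHD6 and WT plants. In watered plants (PHD6-control vs. WT-control) 1 of 32 tested GSTs was called higher, GSTF8, and 0 lower, where 4.26% of all genes were called higher and 0.722% lower, 4.98% in all. GSTF8 had 326, 274 and 323 CPM in PHD6-control, against 234, 184 and 209 CPM in WT-control (0.55 ± 0.11, adjusted p = 0.0302). Under drought (PHD6-drought vs. WT-drought) 1 was called higher, GSTF9, and 0 lower, where 2.65% of all genes were called higher and 3.89% lower, 6.53% in all. GSTF9 had 1223, 1153 and 1319 CPM in PHD6-drought, against 905, 904 and 1012 CPM in WT-drought (0.40 ± 0.08, adjusted p = 0.0263). At an unadjusted p under 0.05 in edgeR 5 of 32 GSTs passed in watered and 9 in drought-treated plants. Of all 19681 genes 3560 and 4443 did, so nothing particular to GSTs is read from these counts. DESeq2 called 1 higher (GSTF8) and 2 lower (GSTU1 and GSTU5) in watered plants, where it called 6.19% of all genes higher and 1.34% lower. Under drought it called 2 higher (GSTF9 and GSTF10) and 1 lower (GSTU5), where the shares of all genes were 4.23 and 5.31%.

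The values also split by class. Of the 9 tested phi genes 8 had a positive log2 fold change in watered and 9 in drought-treated plants, with medians of 0.23 and 0.40, and of the 23 tau genes 20 and 19 had a negative one, with medians of -0.32 and -0.17. Over all genes tested the medians were -0.02 and 0.01. The tau values rested on 1 WT library in each comparison. Without WT-control replicate 1 the watered tau median was -0.02, and without WT-drought replicate 1 the tau median under drought was -0.02, with 11 positive and 12 negative values in each case. The phi sum was 1.30 times as high in PHD6-drought as in WT-drought and 1.21 times as high in PHD6-control as in WT-control, without overlap in either pair. GSTF10 had 454, 511 and 612 CPM in PHD6-drought, against 409.5, 404 and 452 CPM in WT-drought (0.33 ± 0.11, adjusted p = 0.11), every PHD6-drought library lying above every WT-drought one. In watered plants GSTF10 was at 0.23 ± 0.11, adjusted p = 0.321.

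GSTU5 came closest to a call among the tau genes, with 130.2, 121 and 102 CPM in PHD6-control, against 174, 145 and 165 CPM in WT-control (-0.46 ± 0.11, adjusted p = 0.0563), and 62.3, 59.3 and 56.7 CPM in PHD6-drought, against 80.4, 76.4 and 67.5 CPM in WT-drought (-0.32 ± 0.08, adjusted p = 0.0506). Neither pair overlapped, while 24.4 and 28.5% of all genes did not overlap in these comparisons. GSTU1 was at 2.61, 1.94 and 2.07 CPM in PHD6-control, against 12.8, 4.62 and 3.56 CPM in WT-control (-1.66 ± 0.46, adjusted p = 0.087). Without WT-control replicate 1 this was -0.91, adjusted p = 0.0959. Under drought GSTU1 was at -1.14 ± 0.51, adjusted p = 0.228. GSTU25, which with GSTU24 detoxifies the explosive TNT, had 0, 1 and 4 reads in PHD6-drought, against 55, 7 and 7 reads in WT-drought (-3.71 ± 1.17, adjusted p = 0.0949), and 1, 3 and 20 reads in PHD6-control, against 152, 19 and 0 reads in WT-control (-3.08 ± 1.42, adjusted p = 0.306).

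**Figure D5:**
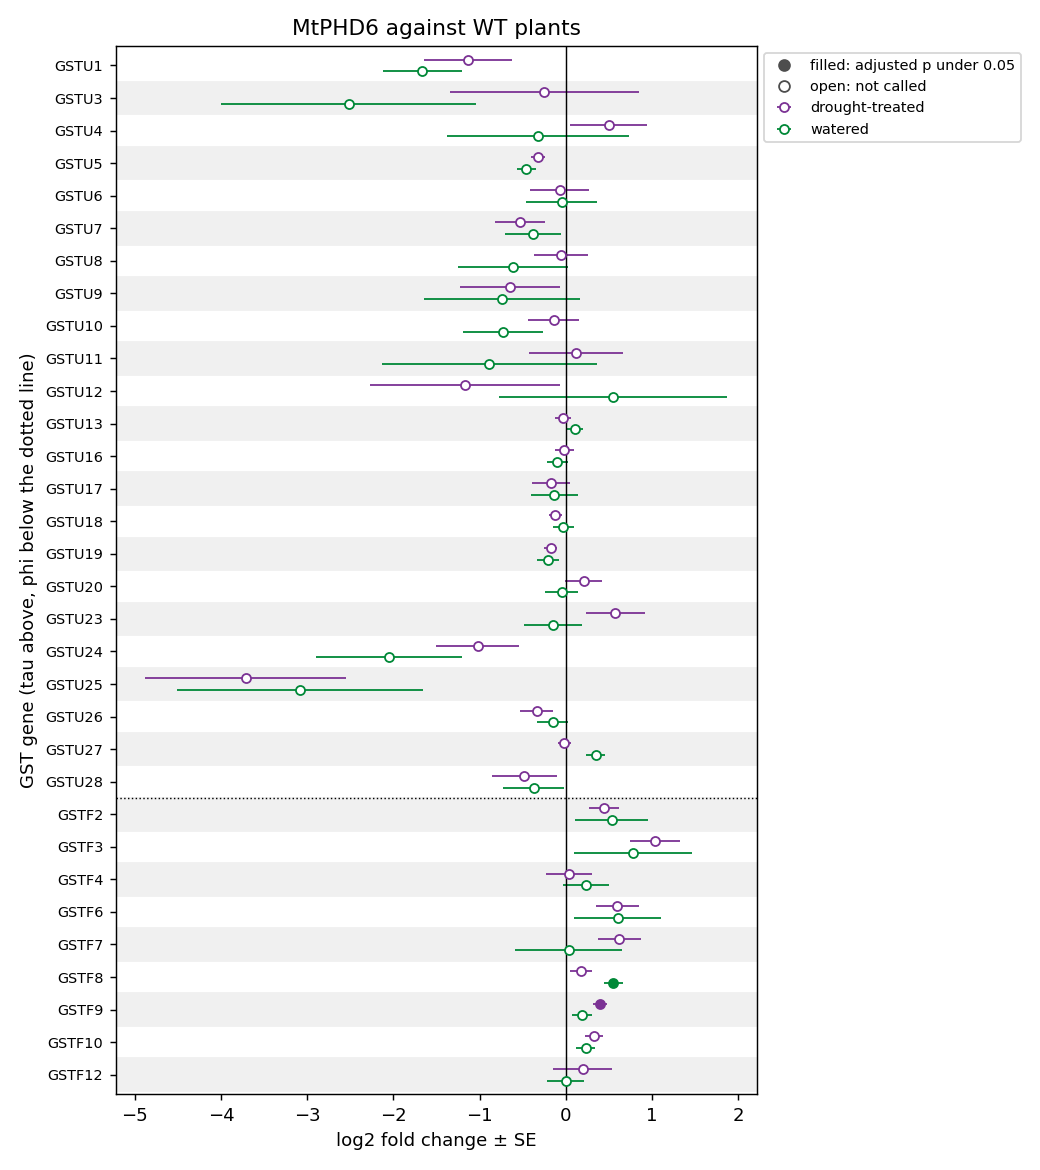
log2 fold change ± SE of the 32 tested GST genes in MtPHD6 against WT plants, under drought (purple) and when watered (green), with filled points called at an adjusted p under 0.05. The filled points are GSTF9 under drought, at 0.40, and GSTF8 when watered, at 0.55, and most tau genes lie left of 0, though without WT-control replicate 1 (watered) or WT-drought replicate 1 (drought) only 12 of 23 do.

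These calls were not firm. Without PHD6-drought replicate 1, 6 phi genes were higher under drought (GSTF2, GSTF3, GSTF6, GSTF8, GSTF9 and GSTF10) and GSTU5 was lower, while 14.1% of all genes were called. Without PHD6-drought replicate 3 or any 1 WT-drought library, no GST was called in that comparison. Of all genes 3.17% and 1.27 to 2.55% were called in those fits, against 6.53% with all libraries. In watered plants no GST was called without PHD6-control replicate 1, PHD6-control replicate 3 or WT-control replicate 3. There 3.11, 3.05 and 2.58% of all genes were called, against 4.98% with all libraries. No member passed the test of a different drought change in the 2 genotypes. In edgeR's interaction test 0 of 32 were called in either direction, where 1.38% of all genes had a more positive and 5.6% a more negative drought change in MtPHD6 plants, 6.98% in all. DESeq2 also called 0, and at an unadjusted p under 0.05 edgeR passed 1, GSTU27, with -0.38 ± 0.14, adjusted p = 0.145. At that unadjusted threshold 3398 of all 19681 genes passed. The estimate for GSTF6 was -0.01 ± 0.64, adjusted p = 0.996, with bounds of -1.29 and 1.26 at 2 SE, so that sizeable differences could not be resolved.

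The other 19 tested members were called in none of the 5 tests, and 17 of them, all but GSTU20 and GSTU27, stayed at or under 24.3 CPM in every library. With drought their log2 fold changes ran from -2.06 to 1.84 in MtPHD6 plants and from -1.43 to 1.33 in WT plants. The 2 ends in MtPHD6 plants were GSTU25 and GSTU4. GSTU4 had 7.39, 6.94 and 23.2 CPM in PHD6-drought, against 0.948, 0.857 and 8.40 CPM in PHD6-control (1.84 ± 0.81, adjusted p = 0.143), the single high watered library again being PHD6-control replicate 3. GSTU27 varied little, with 45.2, 49.3 and 48.2 CPM in PHD6-drought, against 56.8, 53.0 and 56.8 CPM in PHD6-control, and 52.1, 46.7 and 46.6 CPM in WT-drought, against 50.7, 37.6 and 42.6 CPM in WT-control. GSTF12 stayed between 2.63 and 7.86 CPM in all 12 libraries.

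Replicates of watered WT plants differed widely in many weakly expressed tau genes and in 3 phi genes. Of 32 tested GSTs, 4 spanned more than 3-fold between their highest and lowest library in PHD6-drought, against 9 in PHD6-control, and 7 did in WT-drought, against 13 in WT-control. WT-control replicate 1 was the highest of its group for 18 of 23 tau genes and WT-drought replicate 1 for 16. PHD6-control replicate 3 was the highest of its group for 13 and PHD6-drought replicate 3 for 11. GSTU24 had 8.69, 2.94 and 2.23 CPM in WT-drought, against 24.3, 8.06 and 2.12 CPM in WT-control replicates 1 to 3. GSTU3 had 1, 0 and 61 reads in PHD6-control, against 225, 71 and 0 reads in WT-control. In WT-control replicate 1, WT-drought replicate 1, PHD6-control replicate 3 and PHD6-drought replicate 3 the summed level of the senescing leaf markers was also the highest of its group. Their levels are given above, and their part in these values was not tested. Among more abundant genes, GSTF7 varied 6.12-fold, GSTF6 3.34-fold and GSTF2 3.07-fold within WT-control, while GSTF9 varied 1.23-fold and GSTU19 1.40-fold.

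Upstream sequence was examined for motifs known from GST promoters. The 250 bases before the annotated start of each gene (RefSeq, TAIR10.1) were searched on both strands for the as-1 core TGACG, bound by TGA factors, the W-box core TTGAC, bound by WRKY factors, and the G-box CACGTG, found in abscisic acid responsive genes. The as-1 and W-box cores overlap where TTGACG occurs. The as-1 core was present for 13 of 32 tested members, against 18.6% of 27443 genes, the W-box core for 21, against 44.9%, and the G-box for 3, against 6.49%. Among the 6 members that rose with drought in either genotype these numbers were 2, 3 and 1, and among the 7 that fell 2, 4 and 2. The counts include windows that run into annotated exons, such as those of GSTU18 (all 250 bases), GSTF2 (202) and GSTU5 (132). The G-box of GSTU18 and the as-1 and W-box cores of GSTU5, among the falls, come from such windows. So does the as-1 core of GSTF8, which rose (51 exonic bases). The windows of GSTF7 and GSTF10, which rose, and of GSTU1 and GSTU17, which fell, are shown 5′ to 3′ on the strand of the gene with all 3 motifs in capitals. They lie at chr1:659981-660230 (minus), chr2:13141040-13141289 (plus), chr2:12632539-12632788 (minus) and chr1:3398359-3398608 (minus), outside annotated exons.
GSTF7: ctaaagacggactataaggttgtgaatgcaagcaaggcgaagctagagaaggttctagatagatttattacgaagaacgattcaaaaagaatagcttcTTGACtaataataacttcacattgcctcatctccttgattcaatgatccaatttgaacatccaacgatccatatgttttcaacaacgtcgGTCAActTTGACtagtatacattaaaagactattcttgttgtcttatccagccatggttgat
GSTF10: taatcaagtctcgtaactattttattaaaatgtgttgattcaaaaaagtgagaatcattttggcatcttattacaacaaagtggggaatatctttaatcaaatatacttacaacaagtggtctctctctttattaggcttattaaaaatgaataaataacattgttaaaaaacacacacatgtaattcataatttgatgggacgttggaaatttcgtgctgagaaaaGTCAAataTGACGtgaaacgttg
GSTU1: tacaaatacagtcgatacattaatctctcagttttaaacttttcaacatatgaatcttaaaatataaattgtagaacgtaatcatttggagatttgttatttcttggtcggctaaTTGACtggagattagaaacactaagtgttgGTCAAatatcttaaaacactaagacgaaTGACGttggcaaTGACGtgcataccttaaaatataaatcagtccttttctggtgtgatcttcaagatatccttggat
GSTU17: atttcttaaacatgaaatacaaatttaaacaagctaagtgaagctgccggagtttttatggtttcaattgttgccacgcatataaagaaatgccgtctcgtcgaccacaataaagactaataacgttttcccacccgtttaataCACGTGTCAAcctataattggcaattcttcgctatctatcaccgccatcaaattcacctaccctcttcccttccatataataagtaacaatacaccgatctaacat

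The window of GSTF7 holds 3 W-box cores and no G-box, and that of GSTF10 holds 1 W-box core and 1 as-1 core. GSTU1 holds 2 as-1 cores, starting 77 and 65 bases before the gene, and GSTU17 a G-box that runs into a W-box core. These matches are descriptions of the letters and not of binding.

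Other genes of the glutathione pathway changed in small numbers. Their counts are to be read against all genes, of which 9.49% were called higher and 12.7% lower with drought in MtPHD6 plants and 12.2% and 7.18% in WT plants, and nothing particular to a list is read from them. Of 4 ABCC transporters, ABCC3, a vacuolar pump for glutathione conjugates, rose with drought in both genotypes. It had 64.8, 76.7 and 108 CPM in PHD6-drought, against 34.3, 33.1 and 58.5 CPM in PHD6-control (0.99 ± 0.25, adjusted p = 0.0254), and its value in WT plants was 0.98 ± 0.23, adjusted p = 0.0173. ABCC2 fell in MtPHD6 plants (-0.68 ± 0.11, adjusted p = 0.00483) and ABCC4 rose in WT plants (0.68 ± 0.10, adjusted p = 0.00224). Of 10 tested genes of glutathione synthesis, reduction and turnover, AT5G26220, a gamma-glutamyl cyclotransferase that degrades glutathione, fell with drought in both genotypes (-0.97 ± 0.17, adjusted p = 0.00618 in MtPHD6 and -1.49 ± 0.25, adjusted p = 0.00355 in WT plants) and was lower in PHD6-control than in WT-control (-0.70 ± 0.14, adjusted p = 0.0243). GR (AT3G54660), the plastid glutathione reductase, fell with drought in MtPHD6 plants (-0.37 ± 0.07, adjusted p = 0.00969) and was lower in PHD6-drought than in WT-drought (-0.29 ± 0.07, adjusted p = 0.0489). No gene of this list was called higher in any of the 4 comparisons.

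The TGA and SCL14 detoxification list, whose factors act on as-1 promoters, had 3 of 15 tested genes higher and 1 lower with drought in MtPHD6 plants and 1 each way in WT plants. CYP81D8 rose in MtPHD6 plants (1.19 ± 0.34, adjusted p = 0.0391), and AER, an alkenal reductase, fell (-0.50 ± 0.13, adjusted p = 0.0243). CYP81D11 was lower with drought in WT plants, with 0.342, 0.336 and 0.213 CPM in WT-drought, against 4.95, 2.26 and 2.01 CPM in WT-control (-3.33 ± 0.46, adjusted p = 0.00141), and lower in PHD6-control than in WT-control (-2.40 ± 0.44, adjusted p = 0.0188). OPR1 rose in WT plants (0.67 ± 0.15, adjusted p = 0.016). Of 6 camalexin genes 1 was called higher in MtPHD6 plants, CYP79B3 (0.27 ± 0.08, adjusted p = 0.0499), and 1 lower in WT plants, GGP1 (-0.43 ± 0.09, adjusted p = 0.0101). PAD3, the last enzyme of camalexin synthesis, had 29.0, 18.1 and 72.7 CPM in PHD6-drought, against 2.37, 1.94 and 18.4 CPM in PHD6-control (2.36 ± 0.81, adjusted p = 0.0698) and was named after its values were seen. Among 12 GSTs of other classes, DHAR2 fell with drought in WT plants (-0.49 ± 0.14, adjusted p = 0.0347), and the drought change of AT1G77290 was more negative in MtPHD6 plants (interaction -0.86 ± 0.23, adjusted p = 0.0376). Of 8 late anthocyanin genes, UGT78D2 and AT4G14090 fell in WT plants (-0.56 ± 0.12, adjusted p = 0.013 and -0.68 ± 0.17, adjusted p = 0.0247) and none was called in the other comparisons.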

How the data were processed

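Leaf RNA of 12 samples in 4 groups of 3 was sequenced. The deposited values are unnormalized read counts for each gene. Per the submitters' processing notes the tools were HISAT2 (version 2.0.5) and, for counting, featureCounts (version 1.5.0-p3). The genome build and strand setting are not given in the sources used here. Of 38082 entries, 2021 carried no gene name (0.387 to 0.463% of a library) and were left out. Positions and sequences are those of RefSeq's TAIR10.1, which holds all 36061 named genes, and 979 of the 980 gene positions that the study lists were equal to it. The members and lists were chosen with earlier results of these data known.

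A comparison used its 6 libraries alone, and the interaction all 12. Fits were made with edgeR 4.0.16 under R 4.3.3 (TMM, quasi-likelihood F-test) on 19681 genes that filterByExpr kept at a minimum count of 10, p-values were adjusted over all of them by Benjamini and Hochberg's method, and the threshold was 0.05. SE is the log2 fold change divided by the root of F. The steps were tested on simulated data. Replicates are separate samples per the labels, and p-values measure the spread between them. Library totals of 17839925 to 24717357 counts set the precision, and limits at 0 counts cover counting error only. Full statistics were given for up to 8 called members per comparison, for GSTU1, for the 5 highest members and for up to 2 called genes per list. Uncalled GSTs with statistics beside these were added after their values were seen.

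No source says that replicate numbers pair the samples. The deviations of same-numbered libraries correlated at r = 0.348, 0.148 and 0.142 between WT-drought and WT-control, so the replicate block is given for that comparison, and no other comparison met this. The alternatives were other scalings (the size factors of DESeq2, upper quartile), DESeq2 1.42.0 as the test, other filters (none, or 1 CPM or more in each of the 12 libraries), a joint fit of the 12 libraries, the replicate block, organelle genes left out, CPM by total count, shares without length, and each library left out. The upstream window of 1 further member is not reported here.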

Additional observations from a re-analysis of the deposited data

How the results depend on the processing

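Counts of called GSTs were small and moved by single genes. The share of all genes called moved as well. In PHD6-drought vs. WT-drought it was 6.53%, and 1.27 to 14.1% with 1 library left out. For PHD6-control vs. WT-control, 1 was higher, 2 with all 12 libraries together and 0 to 2 with 1 library left out, and 0 were lower, 1 with upper-quartile scaling, with no filter on low counts, with at least 1 CPM in all 12 libraries and with all 12 libraries together, 2 with DESeq2, and 0 to 1 with 1 library left out. For PHD6-drought vs. WT-drought, 1 was higher, 2 with DESeq2, 0 with the replicate block and 0 to 6 with 1 library left out, and 0 were lower, 1 with DESeq2's size factors, with DESeq2 and with at least 1 CPM in all 12 libraries, 2 with no filter (GSTU5 and GSTU25), and 0 to 1 with 1 library left out. For WT-drought vs. WT-control, 4 were higher (1 to 4 with 1 library left out) and 4 lower (7 with the replicate block, 2 to 5 with 1 library left out). For PHD6-drought vs. PHD6-control, 5 were higher (0 to 10 with 1 library left out) and 7 lower (2 to 6), and the replicate block gave 7 higher, GSTU3, GSTU4 and GSTF3 in addition and GSTF9 lost, which has no basis in paired numbers there. In the interaction, 0 were called in the more positive direction under every alternative, and 1 in the more negative one, GSTU27, without WT-control replicate 1, in a range of 0 to 1. Class sums stayed within 1 SD of their group means under total-count scaling. In groups of 3, leaving out 1 library cannot move a mean by 1 SD, so that alternative could not decide. The phi mean in PHD6-drought then ran from 2405 to 2793 CPM and the tau mean from 793 to 872 CPM. For the 47 gene results with a fold change, 556 alternative fits kept direction and call, 67 lost and 33 gained a call, and 17 changed sign, all in results that were not called. These were GSTU1 in the interaction (-0.25 without WT-control replicate 1, up to 1.10 without another library), GSTF9 in WT plants with drought (-0.0055 with upper-quartile scaling), GSTF8 in MtPHD6 plants with drought (-0.0018, -0.032 and -0.017 without PHD6-drought replicate 2, PHD6-drought replicate 3 and PHD6-control replicate 2, up to 0.20 without another) and GSTU20 in MtPHD6 plants with drought (0.067, 0.14, 0.047 and 0.031 without PHD6-drought replicate 2, PHD6-drought replicate 3, PHD6-control replicate 1 and PHD6-control replicate 2, down to -0.34 without another). The interaction of GSTF6, near 0, also took the other sign (0.047 with upper-quartile scaling, 0.0014 with DESeq2, 0.069 with the replicate block, and -0.48 to 0.68 with 1 library left out). The cause of these changes was not tested, and leaving out a library also leaves fewer samples. Without division by length GSTF8 held 9.38% of the summed GST level in place of 4.87%. Groups of 3, and tau genes under about 1 CPM, limit what can be resolved.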

Other observations

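Among the 13 GSTs that spanned more than 3-fold between WT-control libraries, 6 held the as-1 core in the 250 bases before their start, and among the other 19 tested members 7 did. The 13 were GSTU1, GSTU3, GSTU4, GSTU8, GSTU9, GSTU10, GSTU11, GSTU12, GSTU24, GSTU25, GSTF2, GSTF6 and GSTF7. They were grouped after their values were seen, so no test was made. Some of the windows run into annotated exons, as for GSTU24 (144 of 250 bases) in the first group and GSTU5 (132) in the second.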
